A study of Mus musculus with 8 samples.

Results

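Acetylated histone H3 lysine 27 (H3K27ac), which marks promoters and enhancers in use, was examined at the 9 genes that encode the membrane sector of the lysosomal proton pump and its accessory proteins. The genes were Atp6v0c, Atp6v0b, Atp6v0a1, Atp6v0a2, Atp6v0d1, Atp6v0d2, Atp6v0e, Atp6ap1 and Atp6ap2. A region of the deposited table belonged to the group when the gene named for it, which is the one with the nearest start site, was one of these symbols. That rule took 73 of 129304 regions and 9 of 18707 gene symbols. All regions are 800 bp wide and come from a merged list of accessible sites. Chromatin came from brain nuclei of C57BL/6 mice aged 2 years, sorted as PU.1+, OLIG2- and NEUN-, from animals labelled wild-type (WT) and from animals labelled as lacking Grn (GrnKO), the gene of the lysosomal protein progranulin. Each genotype had 2 replicates, each a pool of nuclei from 2 mice, with an H3K27ac library and an input library of sheared chromatin per replicate. How the Grn allele was made and the sex of the animals were not given in the sources used here. With 2 pools per genotype, 4 libraries give little measure of spread. The standard errors and p-values of limma therefore also draw on the spread of other features with similar signal. They do not measure the spread between the libraries of 1 gene or region alone. Where a library was left out, 1 genotype had a single library that was assumed to vary like the other genotype, so a call kept in such a fit is no sign of stability.

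The vacuolar-type ATPase (V-ATPase) acidifies lysosomes by coupling ATP hydrolysis to proton transport. Its peripheral V1 sector hydrolyses ATP and turns a ring of c subunits in the membrane-embedded V0 sector, and protons pass between this ring and the a subunit. The d subunit links the ring to the central stalk, the e subunit is a small membrane protein of V0, and the accessory proteins ATP6AP1 and ATP6AP2 take part in assembly. In macrophages and microglia, lysosomes digest phagocytosed material at acid pH.

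Totals per H3K27ac library ran from 15491642.5 to 20030832 tags, and 4.02% to 4.79% of input tags but 49.4% to 65.7% of H3K27ac tags lay in the listed regions. WT replicate 1 stood apart with the 49.4%, against 63.3% in WT replicate 2. Values below are therefore tags per 10000000, further scaled by the trimmed mean of M values (TMM), and are called scaled tags. H3K27ac summed over the 10 regions of Grn was 2239 and 1867 scaled tags in WT and 159 and 164 in GrnKO, so the genotype labels and this locus pointed the same way. Regions within 1000 bp of the start sites of 6 microglial genes, among them Cx3cr1, P2ry12 and Tmem119, summed to 5980 to 6703 scaled tags in WT and to 4995 to 5131 in GrnKO. The same sum was 0 to 3.91 for the 2 of 4 neuronal markers with such a region and 0.786 to 20.7 for 2 of 4 astrocyte markers. Among oligodendrocyte markers, Mog held 54.0 and 47.7 scaled tags in WT and 27.4 and 25.1 in GrnKO. The 3 regions of Mbp held 45.0 and 18.6 in WT and 51.8 and 44.8 in GrnKO. Each was above the neuronal and astrocyte sums of the same library although nuclei were sorted as OLIG2-. The part of such nuclei in the results was not tested. For border macrophages, 3 of 5 markers had such a region, and the sum was 279 to 326 scaled tags in WT and 265 to 342 in GrnKO. The microglial sum and the value of Mog were both lower in GrnKO, and their part in the results below was not tested. In bulk chromatin, fewer cells of a type and less mark per cell cannot be told apart.

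H3K27ac in GrnKO microglia was higher at the genes of the main ring subunit, of both d subunits and of the e subunit, and lower at Atp6v0a2, the gene of 1 of the a subunits. With tags summed over all regions of a gene, 4 of the 9 genes rose, which were Atp6v0d2, Atp6v0d1, Atp6v0e and Atp6v0c, and 1 fell, Atp6v0a2 (limma, adjusted p under 0.05 over 15380 genes). Without GrnKO replicate 1 the count of genes that rose was 2, where 4.42% of all genes did, and without GrnKO replicate 2 it was 1, where 5.01% did. Atp6v0b, Atp6v0a1, Atp6ap1 and Atp6ap2 did not pass the threshold. Over all tested genes 9.54% rose and 4.88% fell, 14.4% in either direction. The median log2 change was 0.30 over the 9 genes and -0.0099 over all tested genes. The genotypes did not overlap at 6 of the 9 genes, and at 54.0% of all tested genes.

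**Figure D1:**
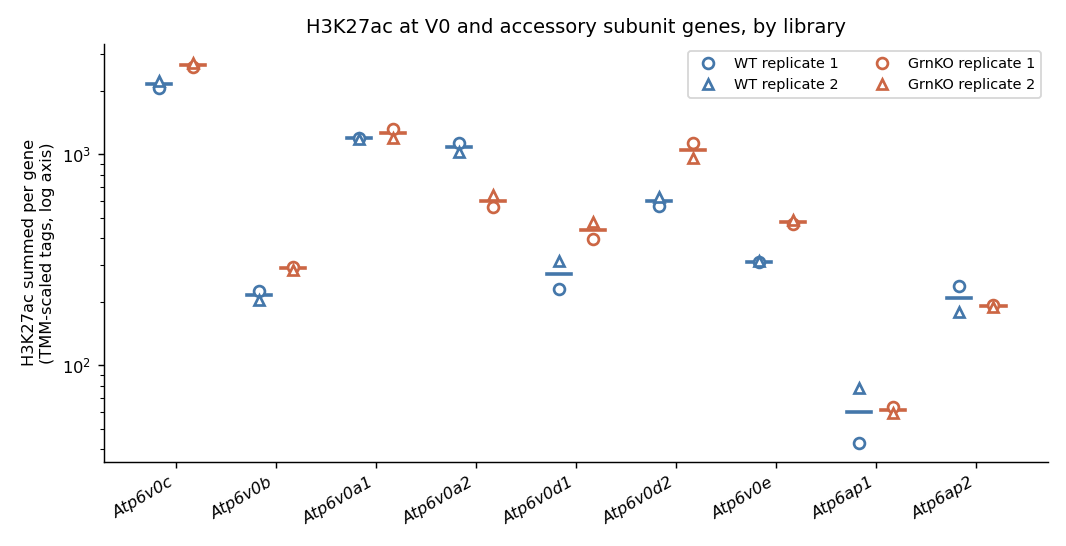
H3K27ac summed over all regions of each gene, in TMM-scaled tags on a log axis, for each of the 4 libraries (points) with the genotype mean (bars). Both GrnKO libraries lie above both WT libraries at Atp6v0c, Atp6v0b, Atp6v0d1, Atp6v0d2 and Atp6v0e and below them at Atp6v0a2, where the means are 599 and 1077 scaled tags.

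Of the 73 regions, 62 had enough tags to be tested, and the other 11 had between 0 and 13.3 scaled tags in every library. H3K27ac was higher in GrnKO at 11 of the 62 and lower at 6, so that 27.4% were called, beside 9.71% of all tested regions (6.80% higher and 2.92% lower). All 6 lower regions belonged to Atp6v0a2, and the 11 higher ones were shared among Atp6v0d2 with 4, Atp6v0e with 3, and Atp6v0c and Atp6v0d1 with 2 each. The libraries of the genotypes did not overlap in 46 of the 62, against 52.7% of all tested regions. Near start sites, within 1000 bp, 4 of 18 tested regions rose and 2 fell, where 5.18% of all such regions were called (3.57% higher and 1.61% lower). Farther away 7 of 44 rose and 4 fell, where 11.4% were called (7.99% and 3.40%). Among the 73 regions, 36 overlapped another region of the same gene, so that neighbouring regions share tags and are not independent. Without GrnKO replicate 1, 0 regions were called higher and 2 lower, where 1.43% and 0.245% of all tested regions were. Without GrnKO replicate 2 the counts were again 0 and 2, where 1.81% and 0.515% of all were called. In both fits the 11 higher and 6 lower regions kept their direction and had larger standard errors, as at chr17:26676316-26677116 of Atp6v0e, with changes of 0.90 and 0.78 (SE 0.33 in both) against 0.84 (SE 0.21) from all libraries. Without WT replicate 2 the counts were 19 and 7, where 17.8% of all were called in either direction.

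**Figure D2:**
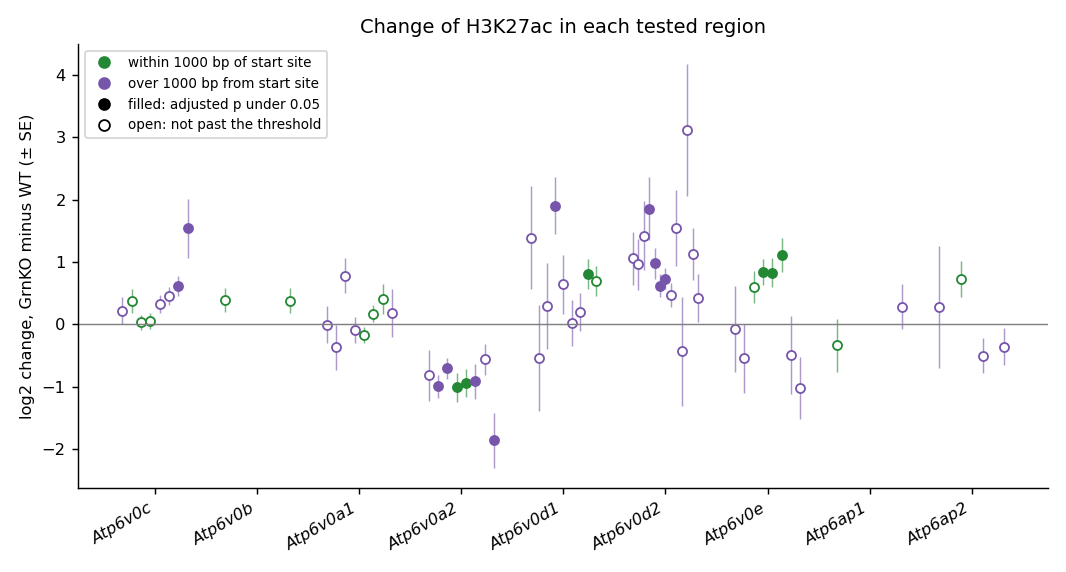
Change of H3K27ac in each of the 62 tested regions, as log2 GrnKO minus WT with its standard error, grouped by gene and coloured by distance from the start site; filled points have an adjusted p under 0.05. All 8 points of Atp6v0a2 are below 0, and 12 of the 13 points of Atp6v0d2 are above it.

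The strongest region of each gene gives a comparison of levels, since every region has the same width. Averaged over the 4 libraries it held 512 scaled tags at Atp6v0c, 426 at Atp6v0a1, 257 at Atp6v0a2 and 216 at Atp6v0d2. It held 133 at Atp6v0b, 122 at Atp6v0d1, 106 at Atp6v0e, 79.9 at Atp6ap2 and 37.8 at Atp6ap1. In this order the values of single libraries overlapped between Atp6v0a2 and Atp6v0d2 and between each neighbouring pair from Atp6v0b to Atp6ap2. They did not overlap between Atp6v0c, Atp6v0a1 and Atp6v0a2, between Atp6v0d2 and Atp6v0b or between Atp6ap2 and Atp6ap1. By genotype means, part of the order turned. Atp6v0a2 was above Atp6v0d2 in WT, at means of 318 and 162, and below it in GrnKO, at 196 and 269.9. Atp6ap2, at a mean of 92.1 in WT, was above Atp6v0d1 at 90.1 and Atp6v0e at 75.8. That came from WT replicate 1, at 123 against 67.3 and 77.0. In WT replicate 2 Atp6ap2 was below both, at 61.0 against 113 and 74.6. In GrnKO it was below both as well, at means of 67.7 against 154 and 137. Atp6v0b was above Atp6v0d1 in the WT mean, at 115, and close to it in GrnKO, at 150.3. In WT replicate 2 Atp6v0b was below Atp6v0d1, at 106 against 113. In the means of both genotypes the strongest regions of Atp6v0c and Atp6v0a1, both by a start site, held the most H3K27ac, and that of Atp6ap1, in an intron, the least.

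Atp6v0c encodes the c subunit, the proteolipid that makes up most of the proton-carrying ring. Its 8 regions on chromosome 17 (mm10, the build named in the submitters' processing notes) summed to 2071 and 2223 scaled tags in WT and to 2588 and 2711 in GrnKO. Both GrnKO libraries were above both WT libraries, by 1.23-fold. The gene rose by 0.30 on the log2 scale (SE 0.093, limma adjusted p = 0.0387). Without GrnKO replicate 1 the change was 0.34 (SE 0.16, adjusted p = 0.271) and without GrnKO replicate 2 it was 0.27 (SE 0.16, adjusted p = 0.404), so that the change stayed about as large and the call was lost. On the authors' scaling alone it was 0.49 (adjusted p = 0.233), and with no filter on low values the adjusted p was 0.0547.

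The called regions of Atp6v0c lay upstream of its promoter. Its strongest region, chr17:24169051-24169851 at the start site, held 548 and 467 scaled tags in WT and 482 and 552 in GrnKO, and the genotypes overlapped (log2 change 0.029, SE 0.13, limma adjusted p = 0.924). The intergenic region chr17:24172067-24172867, 2789 bp upstream, held 213 and 288 scaled tags in WT and 399 and 357 in GrnKO, a rise of 0.61 (SE 0.16, limma adjusted p = 0.0210). That change was 0.39 without WT replicate 1, and its adjusted p was 0.0578 on the authors' scaling alone and 0.0576 with no filter on low values. At chr17:24173234-24174034, 3956 bp upstream, WT had 7.82 and 18.9 scaled tags and GrnKO had 29.7 and 47.1 (log2 change 1.54, SE 0.47, limma adjusted p = 0.0479). This weak region lost its call without WT replicate 1, at a log2 change of 0.95 and an adjusted p of 0.0917, and also with no filter (adjusted p = 0.103), in edgeR (0.0691) and in DESeq2 (0.0764). Summed over the 3 regions within 1000 bp of a start site, the log2 change was 0.11 (SE 0.11, limma adjusted p = 0.660). Over the 5 farther regions it was 0.49 (SE 0.13, adjusted p = 0.0198).

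The log2 ratio of the far to the near sum was -0.44 and 0.042 in the WT libraries and 0.27 and 0.070 in the GrnKO libraries. It was higher in both GrnKO libraries, by 0.37 on average, with an exact permutation p of 0.33, the smallest that 2 against 2 libraries allow. The difference was 0.13 without WT replicate 1 and 0.61 without WT replicate 2. The 4 upstream regions are in no coding gene and lie between Atp6v0c and Tbc1d24, whose nearer end is 5753 bp from the start of Atp6v0c. H3K27ac summed over the 4 regions nearest to Tbc1d24 itself was 11.8 and 22.5 scaled tags in WT and 40.7 and 49.5 in GrnKO (log2 change 1.40, SE 0.44, limma adjusted p = 0.0463). On the other side, 132 bp away, Amdhd2 had 538 and 561 scaled tags in WT and 920.3 and 968 in GrnKO (log2 change 0.78, SE 0.12, adjusted p = 0.000458). Both neighbours of Atp6v0c thus rose with it.

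Atp6v0b encodes c'', the variant proteolipid of the same ring. It has 2 overlapping regions on chromosome 4 and no other, and they summed to 226 and 205 scaled tags in WT and to 293 and 284 in GrnKO. The genotypes did not overlap, and the log2 change of 0.42 (SE 0.17) did not pass the threshold (limma adjusted p = 0.116). Without WT replicate 1 it was 0.49 with an adjusted p of 0.0457. The stronger region, chr4:117886536-117887336 in intron 1, held 124 and 106 scaled tags in WT and 153 and 148 in GrnKO (log2 change 0.39, SE 0.20, limma adjusted p = 0.239).

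The 250 bases before the start site of both ring genes are shown because this is where many genes of lysosomal proteins carry the E-box recognised by the MITF and TFEB family of transcription factors. The sequences are RefSeq's (GRCm38.p6), read 5′ to 3′ on the gene's strand, with motif matches in capitals. Both strands were searched for CACGTG, which is the core of the E-box, and for TCACGTG, a longer form that contains it. They were also searched for TCATGTG, the M-box, and for GAGGAA, the core of the PU.1 motif.
Atp6v0b, chr4:117887330-117887579, minus strand: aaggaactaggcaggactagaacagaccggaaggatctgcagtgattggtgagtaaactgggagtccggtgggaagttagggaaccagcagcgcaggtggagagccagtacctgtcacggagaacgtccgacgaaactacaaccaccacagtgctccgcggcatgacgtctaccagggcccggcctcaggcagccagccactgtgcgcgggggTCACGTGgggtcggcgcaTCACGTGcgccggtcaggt
Atp6v0c, chr17:24169451-24169700, minus strand: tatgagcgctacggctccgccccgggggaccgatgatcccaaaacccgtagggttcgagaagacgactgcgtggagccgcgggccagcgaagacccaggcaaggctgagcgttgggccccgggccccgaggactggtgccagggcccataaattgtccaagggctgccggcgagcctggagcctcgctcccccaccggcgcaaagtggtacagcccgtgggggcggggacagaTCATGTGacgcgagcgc
The promoter of Atp6v0b held TCACGTG in 2 places, which begin 37 and 19 bases before the start, and each contains CACGTG. RefSeq has 3 start sites for Atp6v0c, and the one shown was chosen for its match, TCATGTG 17 bases before the start. It is the start of 1 of the 8 regions of the gene, and the windows of the other start sites, which belong to 5 and 2 regions, held no match. CACGTG occurs in the same window of 6.02% of 32851 promoters, TCACGTG in 3.13%, TCATGTG in 3.25% and GAGGAA in 23.3%. RefSeq entries were found for 7 of the 9 genes, 9 entries in all, and these were the matches among them. A match describes letters only, and none of the regions at either start site passed the test between genotypes.

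The a subunit forms the channels through which protons enter and leave the ring, and its isoforms direct the pump to different membranes. Atp6v0a1 has 9 regions on chromosome 11, which summed to 1196 and 1186 scaled tags in WT and to 1321 and 1195 in GrnKO. The genotypes overlapped, with a log2 change of 0.077 (SE 0.11, limma adjusted p = 0.721). At its strongest region, chr11:101008339-101009139 by the start site, WT had 447 and 456 scaled tags and GrnKO 427 and 376. The log2 change there was -0.17 (SE 0.13, limma adjusted p = 0.459). None of its 8 tested regions was called, 4 had a positive and 4 a negative change, and these ran from -0.37 to 0.78.

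Atp6v0a2 encodes the a2 isoform, known from the Golgi and endosomes, and was the only one of the 9 genes at which H3K27ac fell. Its 8 regions on chromosome 5 summed to 1130.0 and 1024 scaled tags in WT and to 559.9 and 639 in GrnKO. Both GrnKO libraries were below both WT libraries, and the WT mean was 1.80-fold higher. H3K27ac fell by 0.85 on the log2 scale (SE 0.12, limma adjusted p = 0.000276). The change ranged from -0.94 to -0.75 when each library was left out in turn. It was -0.66 on the authors' scaling alone, with an adjusted p of 0.0449. Input tags summed over the same regions were high in 1 library, at 266 deposited scaled tags in WT input 1 against 12.3 to 45.1 in the other 3. Of these, 147 lay in 1 region, chr5:124622789-124623589.

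All 8 regions of Atp6v0a2 were lower in both GrnKO libraries than in both WT libraries, as were 25.6% of all tested regions, and 6 passed the test, where 2.92% of all were called lower. The strongest was chr5:124622789-124623589, 5863 bp upstream, with 303 and 332 scaled tags in WT and 167 and 225 in GrnKO (log2 change -0.71, SE 0.17, limma adjusted p = 0.0116). Beside it, chr5:124621169-124621969 had 246 and 219 in WT and 124 and 108 in GrnKO (log2 change -0.99, SE 0.18, limma adjusted p = 0.0017). These 2 regions and a weaker one at chr5:124616216-124617016 lie in introns of Tctn2, a gene of the ciliary transition zone whose end is 1314 bp before Atp6v0a2.

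At the Atp6v0a2 start site, chr5:124628120-124628920 held 177 and 129 scaled tags in WT and 62.8 and 87.9 in GrnKO (log2 change -1.01, SE 0.24, limma adjusted p = 0.0105). The overlapping chr5:124628597-124629397 held 151 and 121 in WT and 64.5 and 75.7 in GrnKO (log2 change -0.94, SE 0.23, adjusted p = 0.0126). Loss of signal thus covered the promoter as well as the upstream introns. Within intron 1, chr5:124631149-124631949 had 93.1 and 73.1 scaled tags in WT and 36.8 and 50.8 in GrnKO (log2 change -0.92, SE 0.28, limma adjusted p = 0.0472). Its change was -0.75 without WT replicate 1 (adjusted p = 0.0962), and its adjusted p from all libraries was 0.0747 with no filter, 0.0634 in edgeR and 0.0636 in DESeq2. In intron 2, chr5:124633246-124634046 had 64.5 and 37.5 in WT against 18.1 and 9.0 in GrnKO, the largest change of the 8 regions (log2 change -1.86, SE 0.44, limma adjusted p = 0.0109).

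The near sum of Atp6v0a2 fell by 0.96 (SE 0.20, limma adjusted p = 0.00695) and the far sum by 0.81 (SE 0.13, adjusted p = 0.00105), and their ratio overlapped between genotypes. The 3 regions assigned to Tctn2 itself were weak, at 16.4 and 9.93 scaled tags in WT and 1.1 and 1.4 in GrnKO, with an adjusted p of 0.0758 in limma. Dnah10, which lies 630.0 bp beyond the end of Atp6v0a2, had 13.2 to 23.7 scaled tags in the 4 libraries (limma adjusted p = 0.534). On the authors' scaling, which puts the median of all tested genes at 0.18 instead of -0.0099, 1 of the 6 regions stayed past the threshold, the one in intron 2.

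The balance of the a isoforms was compared as a ratio within each library. The log2 ratio of Atp6v0a2 to Atp6v0a1 was -0.082 and -0.21 in WT against -1.24 and -0.90 in GrnKO. Both GrnKO libraries were lower, with a mean difference of -0.92 (exact permutation test, two-sided, p = 0.33, the smallest possible, adjusted 0.5 over 3 ratios). Tcirg1, which encodes the a3 isoform of osteoclasts and macrophages and is no member of the group, had a log2 ratio to Atp6v0a1 of 0.949 and 0.952 in WT and 1.11 and 1.32 in GrnKO. Its ratio was higher in both GrnKO libraries, by 0.26 (exact permutation p = 0.33, adjusted 0.5), and by 0.16 without GrnKO replicate 2 and 0.15 over regions that do not overlap. The genes differ in their number of regions, so the ratios serve to compare genotypes and not the levels of the isoforms.

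By pattern over the 4 libraries, the genes most like Atp6v0a2 were Rab3ip, Rbsn and Dcun1d1. Likeness was the Euclidean distance between log2 values centred on each gene's mean, which was 0.045, 0.057 and 0.071. Rab3ip, an exchange factor for Rab8, had 833 and 780.4 scaled tags in WT and 425 and 491 in GrnKO (log2 change -0.82, limma adjusted p = 0.000619). Rbsn, an endosomal Rab effector, had 7.46 to 16.8 scaled tags and did not pass the test (adjusted p = 0.427). Dcun1d1 had 54.8 to 113 scaled tags (log2 change -0.90, limma adjusted p = 0.0290).

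**Figure D3:**
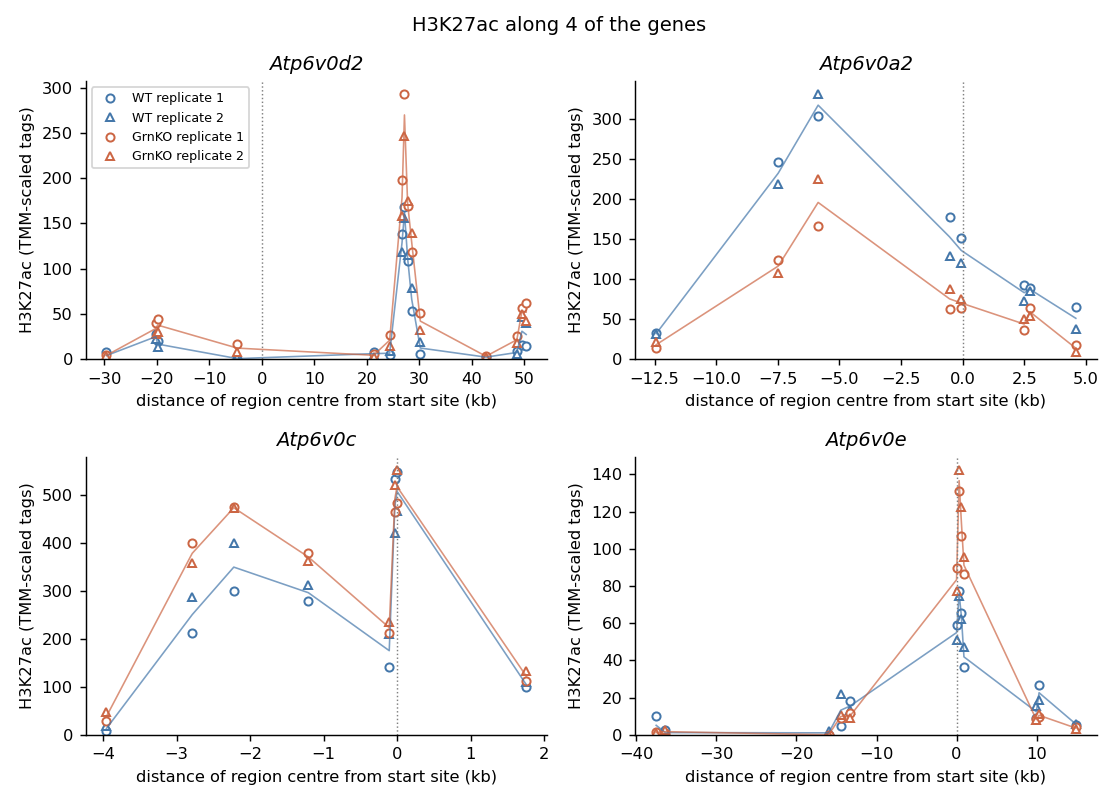
H3K27ac in each region, in TMM-scaled tags, against the distance of the region's centre from the start site in kb, for Atp6v0d2, Atp6v0a2, Atp6v0c and Atp6v0e; points are libraries and lines join the genotype means. GrnKO is below WT in each of the 8 regions of Atp6v0a2, above WT in the intronic cluster of Atp6v0d2 (293 and 247 against 168 and 156 at its top), and above WT at the start site of Atp6v0e.

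The d subunit caps the ring at the foot of the central stalk. Atp6v0d1, the ubiquitous isoform, has 10 regions on chromosome 8, which summed to 229 and 314 scaled tags in WT and to 396 and 478 in GrnKO. Both GrnKO libraries were above both WT libraries, by 1.62-fold. H3K27ac rose by 0.70 (SE 0.18, limma adjusted p = 0.0150). The adjusted p was 0.204 without GrnKO replicate 2, at a log2 change of 0.56. The log2 change was 0.47 without WT replicate 1, the lowest value when each library was left out, and 0.93 without WT replicate 2.

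Near the Atp6v0d1 start, chr8:105565061-105565861 in intron 1 held 67.3 and 113 scaled tags in WT and 137 and 172 in GrnKO (log2 change 0.81, SE 0.24, limma adjusted p = 0.0428). Without WT replicate 1 that change was 0.44 with an adjusted p of 0.152, and the adjusted p was 0.0833 with no filter, 0.0706 in edgeR and 0.0655 in DESeq2. Deeper in intron 1, 15851 bp from the start, chr8:105549813-105550613 held 9.78 and 7.86 scaled tags in WT and 34.2 and 36.9 in GrnKO (log2 change 1.90, SE 0.46, limma adjusted p = 0.0130). The region at the start site itself, chr8:105565673-105566473, held 59.4 and 79.1 scaled tags in WT against 99.8 and 125 in GrnKO and did not pass the test (log2 change 0.70, SE 0.24, limma adjusted p = 0.0792). The site deep in intron 1 was weak in both WT libraries and well above them in both GrnKO libraries. The near sum rose by 0.78 (SE 0.21, limma adjusted p = 0.0380), and the far sum had a log2 change of 0.55 (SE 0.22, adjusted p = 0.0992).

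The promoter of Atp6v0d1 is shown, in the same window and from the same source, as that of a gene whose near sum rose.
Atp6v0d1, chr8:105566065-105566314, minus strand: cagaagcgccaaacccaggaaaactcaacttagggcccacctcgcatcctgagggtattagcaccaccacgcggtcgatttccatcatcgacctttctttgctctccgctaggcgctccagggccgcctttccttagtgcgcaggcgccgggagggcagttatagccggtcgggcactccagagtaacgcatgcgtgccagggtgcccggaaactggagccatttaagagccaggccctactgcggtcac
Its sequence, 60.4% G and C, held no match to the motifs searched.

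Atp6v0d2 encodes the second d isoform, which is known from osteoclasts and macrophages. Its 15 regions on chromosome 4 summed to 569 and 629 scaled tags in WT and to 1133 and 961 in GrnKO. Both GrnKO libraries were above both WT libraries, by 1.74-fold. H3K27ac rose by 0.80 on the log2 scale (SE 0.13, limma adjusted p = 0.000536), and the change lay between 0.68 and 0.92 with each library left out in turn. None of the 15 regions lay within 1000 bp of the start site.

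Most of the H3K27ac of Atp6v0d2 sat in a cluster in intron 2 of 7, 26722 to 30210.0 bp inside the gene. At the top of this cluster, chr4:19894979-19895779 held 168 and 156 scaled tags in WT and 293 and 247 in GrnKO (log2 change 0.73, SE 0.17, limma adjusted p = 0.00912). The overlapping chr4:19894374-19895174 held 108 and 115 in WT and 169 and 174 in GrnKO (log2 change 0.62, SE 0.19, adjusted p = 0.0451). This call was lost on the authors' scaling (adjusted p = 0.0515), with no filter (0.0710) and in edgeR (0.0503). Next to it, chr4:19893600-19894400 held 53.6 and 78.8 in WT and 119 and 139.8 in GrnKO (log2 change 0.97, SE 0.24, adjusted p = 0.0158). In each of these 3 regions GrnKO lay above WT without overlap.

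A weaker region at the edge of the Atp6v0d2 cluster, chr4:19891956-19892756, held 5.87 and 18.6 scaled tags in WT and 51.5 and 32.5 in GrnKO (log2 change 1.85, SE 0.50, limma adjusted p = 0.0254). Its change was 1.10 without WT replicate 1 and 2.61 without WT replicate 2, and its adjusted p was 0.0650 with no filter. Of the 13 tested regions of Atp6v0d2, 11 had no overlap between genotypes, all with GrnKO above, as had 21807 of all 80728 tested regions. A region with enough tags in GrnKO alone could pass the filter on low values, so its direction was then favoured in advance. Such a region was the site closest to the start, 4653 bp upstream. It held 0 and 1.05 scaled tags in WT and 16.4 and 7.84 in GrnKO and did not pass the test (limma adjusted p = 0.0716). The nearest gene on the side of its last exon, Slc7a13, 34625 bp away, also rose, from 50.1 and 65.8 scaled tags to 147 and 91.2 (log2 change 1.00, SE 0.29, adjusted p = 0.0316).

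The ratio of the d isoforms was not separable between genotypes. The log2 ratio of Atp6v0d2 to Atp6v0d1 was 1.31 and 1.00 in WT and 1.52 and 1.01 in GrnKO, a mean difference of 0.10 with overlap (exact permutation test, two-sided, p = 0.667, adjusted 0.667 over 3 ratios). Leaving out WT replicate 2 gave -0.051 and leaving out GrnKO replicate 1 gave -0.15. With 2 libraries per genotype this test cannot show that the isoforms changed alike.

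Atp6v0e encodes the e1 subunit, a small hydrophobic protein of V0. Its 12 regions on chromosome 17 summed to 307 and 311 scaled tags in WT and to 466 and 488 in GrnKO. Both GrnKO libraries were above both WT libraries, by 1.54-fold, and replicates lay close together. The gene rose by 0.62 (SE 0.14, limma adjusted p = 0.00866). The change was 0.66 without GrnKO replicate 1 and 0.59 without GrnKO replicate 2, each with an SE of 0.23 and with an adjusted p of 0.0945 and 0.134. With overlapping regions counted once it was 0.51 (adjusted p = 0.0522).

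The 3 called regions of Atp6v0e lay in intron 1 next to the start site. The region chr17:26676316-26677116 held 77.0 and 74.6 scaled tags in WT and 131 and 142 in GrnKO (log2 change 0.84, SE 0.21, limma adjusted p = 0.0178). The overlapping chr17:26676597-26677397 held 65.7 and 62.1 in WT and 107 and 122 in GrnKO (log2 change 0.83, SE 0.23, adjusted p = 0.0295). Further into intron 1, chr17:26676920-26677720 held 36.4 and 47.4 in WT and 86.6 and 95.7 in GrnKO (log2 change 1.11, SE 0.27, adjusted p = 0.0133). With the region at the start site these form a chain of 4 overlapping regions, in each of which both GrnKO libraries lay above both WT libraries.

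Summed, these 4 regions of Atp6v0e held 233 and 234 scaled tags in WT and 419.8 and 442 in GrnKO, a rise of 0.87 (SE 0.16, limma adjusted p = 0.0021). The 8 regions farther away held 74.5 and 77.1 scaled tags in WT and 46.2 and 45.5 in GrnKO, and their log2 change of -0.72 (SE 0.29) did not pass the threshold (limma adjusted p = 0.113). The log2 ratio of far to near was -1.64 and -1.60 in WT and -3.18 and -3.28 in GrnKO. It was lower in both GrnKO libraries, with a difference of -1.61 (exact permutation p = 0.33, the smallest possible, adjusted 0.583 over the 7 genes with both kinds of region). Among those 7 genes this was the largest difference of the ratio, and it ran from -1.66 to -1.56 when each library was left out.

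The promoter of Atp6v0e is shown because its near sum had the smallest adjusted p among the near sums that rose.
Atp6v0e, chr17:26676146-26676395, plus strand: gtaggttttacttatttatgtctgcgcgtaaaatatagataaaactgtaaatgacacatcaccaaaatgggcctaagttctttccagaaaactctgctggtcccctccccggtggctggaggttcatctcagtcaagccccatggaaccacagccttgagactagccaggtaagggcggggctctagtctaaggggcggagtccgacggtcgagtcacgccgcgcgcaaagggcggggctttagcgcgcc
Its sequence, 54.0% G and C, held no match either.

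ATP6AP1 (Ac45) is a membrane glycoprotein of V0, and ATP6AP2, also called the prorenin receptor, is its partner. Both genes lie on the X chromosome. The 2 regions of Atp6ap1 summed to 42.8 and 77.6 scaled tags in WT and to 63.1 and 59.3 in GrnKO. The WT libraries lay on either side of the GrnKO libraries, and the log2 change was 0.083 (SE 0.33, limma adjusted p = 0.914). Its stronger region, chrX:74299503-74300303 in intron 2, held 23.9 and 46.1 in WT and 43.3 and 38.1 in GrnKO (log2 change 0.28, SE 0.36, limma adjusted p = 0.702).

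The 7 regions of Atp6ap2 summed to 238 and 178 scaled tags in WT and to 193 and 188 in GrnKO, with overlap and a log2 change of -0.11 (SE 0.20, limma adjusted p = 0.776). Its strongest region, chrX:12591100-12591900 in intron 1, held 123 and 61.0 in WT and 72.1 and 63.2 in GrnKO. WT replicate 1 alone was high there, and the log2 change was -0.36 (SE 0.29, limma adjusted p = 0.506). Without WT replicate 2 that change was -0.86 with an adjusted p of 0.0136, and without WT replicate 1 it was 0.14. The promoter region, chrX:12587326-12588126, held 36.0 and 40.6 in WT and 59.4 and 68.3 in GrnKO (log2 change 0.72, SE 0.29, adjusted p = 0.134). The far to near log2 ratio of Atp6ap2 was 2.53 and 1.77 in WT and 1.13 and 0.79 in GrnKO, lower in both GrnKO libraries (exact permutation p = 0.33, adjusted 0.583).

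The libraries also differed at Xist, the X-linked gene of the RNA that coats the inactive X chromosome. H3K27ac over the 3 regions of Xist was 98.9 and 0 scaled tags in WT and 119 and 5.08 in GrnKO. The first replicate of each genotype was thus high at Xist and the second low, so this difference did not follow genotype. Its part in the values of Atp6ap1 and Atp6ap2 was not tested.

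H3K27ac also rose at other genes of the pump. A list of 24 further genes, made up of V1 subunits, V0 and accessory paralogs and assembly factors, had 22 members with enough tags to test, of which 9 rose and 1 fell, beside 9.54% and 4.88% of all tested genes. Their median log2 change was 0.36. Among V1 subunits 5 of 11 tested rose and 0 fell, which were Atp6v1a, Atp6v1g1, Atp6v1d, Atp6v1h and Atp6v1e1. Atp6v1a, the catalytic A subunit, had 561 and 562 scaled tags in WT and 1293 and 1299.6 in GrnKO (log2 change 1.21, SE 0.11, limma adjusted p = 5.75e-06). Atp6v1h, a regulatory subunit, went from 24.8 and 44.2 to 81.5 and 99.8 (log2 change 1.42, SE 0.34, adjusted p = 0.0103). In both genes the GrnKO libraries lay above the WT libraries without overlap, as at 27.4% of all tested genes.

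The other 3 named V1 genes rose by 0.77 to 0.84 on the log2 scale: Atp6v1g1 by 0.84, Atp6v1d by 0.78 and Atp6v1e1 by 0.77, with limma adjusted p-values of 0.00476, 0.00988 and 0.0116. Among 4 paralogs of V0 and accessory genes only Tcirg1 passed the test, at 2308 and 2296 scaled tags in WT and 2848 and 2979 in GrnKO (log2 change 0.34, SE 0.089, adjusted p = 0.0179). Its change was 0.53 on the authors' scaling (adjusted p = 0.191), 0.37 without GrnKO replicate 1 (0.187) and 0.31 without GrnKO replicate 2 (0.295). Of 7 assembly factors 3 rose and 1 fell. Dmxl2, which belongs to the RAVE-like complex that joins V1 to V0, had 32.1 and 48.9 scaled tags in WT and 211 and 218 in GrnKO (log2 change 2.41, SE 0.26, adjusted p = 2.08e-05). Dmxl1 and Wdr7, which also encode RAVE-like proteins, rose as well, by 0.88 and 1.15 (adjusted p = 0.0153 and 0.0436). Over non-overlapping regions their log2 changes were 0.68 and 1.11, and neither passed (adjusted p = 0.0844 and 0.107). Wdr7 also did not pass with no filter (1.15, adjusted p = 0.0727), by its near sum (1.55, 0.0609) or by its far sum (0.66, 0.394). The near sum of Dmxl1 did not pass (0.48, adjusted p = 0.361), and its far sum did (1.69, 0.00937). Without GrnKO replicates 1 and 2 the log2 change of Dmxl1 was 0.88 in both fits, as from all libraries. That of Wdr7 was 0.84 and 1.45, against 1.15. Rogdi, named here after its value was seen, fell by 0.48 (adjusted p = 0.0446) and lost its call without WT replicate 1 (-0.43, adjusted p = 0.0573), on the authors' scaling (-0.29, adjusted p = 0.550) and in edgeR (-0.48, adjusted p = 0.0521). Without GrnKO replicate 1, 2 of the 22 tested were called higher and 0 lower, where 4.42% and 1.23% of all genes were. Without GrnKO replicate 2 the counts were again 2 and 0, where 5.01% and 1.99% of all were called.

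**Figure D4:**
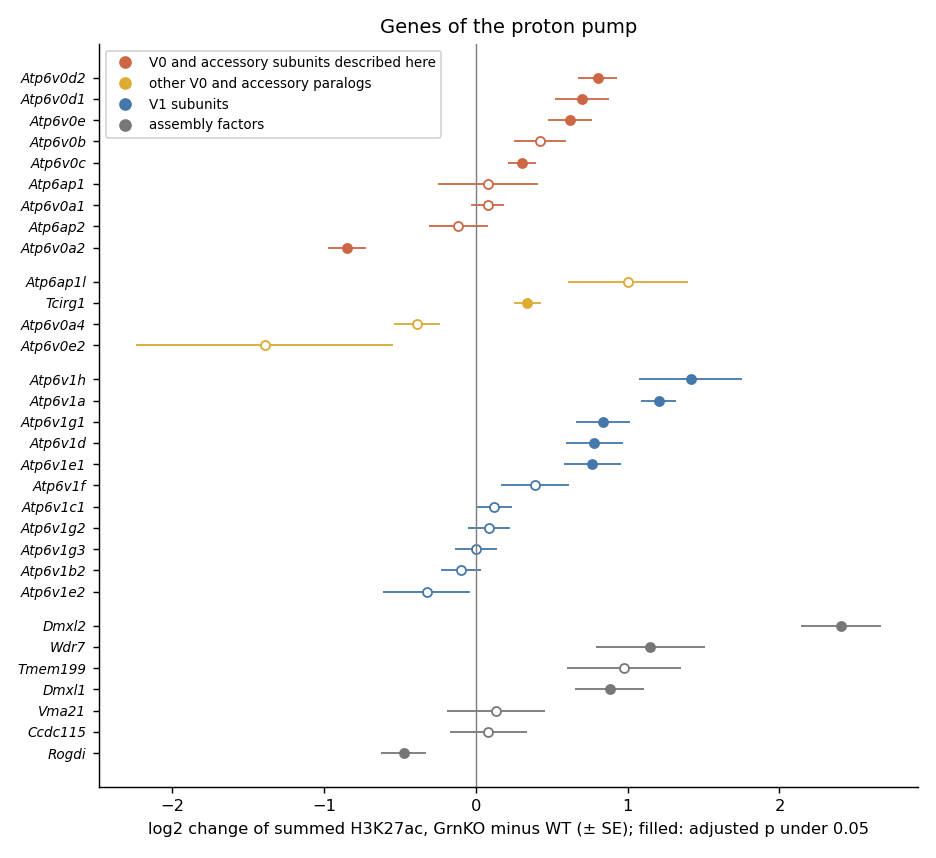
Log2 change of H3K27ac summed per gene, GrnKO minus WT, with its standard error, for the 9 V0 and accessory genes and the 22 other tested genes of the pump; filled points have an adjusted p under 0.05. Most called genes lie right of 0, with Dmxl2 farthest at 2.41, and the called genes left of 0 are Atp6v0a2 and Rogdi.

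Input chromatin at the regions of the 9 genes was sparse. Of 292 input values, 182 were 0, the median was 0 and the highest was 147 deposited scaled tags, and 6 regions had an input value above 50. At Atp6v0a2 the high input belonged to WT replicate 1. Without that replicate, which leaves a single WT library, the log2 change of H3K27ac was -0.78, against -0.85 from all libraries. The part of the high input in the change of Atp6v0a2 was not tested. When the input difference was subtracted from the H3K27ac difference in 1 model over 8 libraries, 0 of 80728 regions and 0 of the 9 genes passed limma's threshold, with 6113 regions at an unadjusted p under 0.05. The change of Atp6v0a2 was then -0.41 (SE 1.82, limma adjusted p = 0.993) and that of Atp6v0d2 0.40 (SE 0.83, adjusted p = 0.969).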

How the data were processed

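H3K27ac and input libraries of WT and GrnKO microglial nuclei were compared in the table that the authors deposited, which gives 8 columns of values over 129304 regions of 800 bp. The unit of these values is a signal: per the file headers, the tags in each region were scaled to 10000000 per library, and regions were annotated with the nearest start site. The submitters' processing notes name Bowtie2, HOMER, DESeq2 and the build mm10, and their roles, versions and the handling of duplicate reads were not given in the sources used here. Coordinates are those of the table.

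With the library totals of the headers, 100% of the deposited values in each column turned back into whole read ends (2 to a tag, tolerance 0.1). H3K27ac libraries totalled 15491642.5 to 20030832 tags and input libraries 4078179 to 14415969. A gene of the group held 56 to 5810.5 tags per H3K27ac library. Reads carried no molecular identifiers, so depth limits cover counting error only.

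The filter on low values was filterByExpr of edgeR, by genotype with a minimum of 10 tags (80728 regions, and 15380 genes after summing over all regions of a gene). TMM factors (edgeR 4.0.16) for the WT and then the GrnKO libraries were 0.825, 1.04, 1.08 and 1.08 for regions, and 0.845, 1.04, 1.07 and 1.07 for genes. On log2(scaled tags + 1), limma 3.58.1 (R 4.3.3, lmFit and a trended eBayes) compared the genotypes with no covariate, and Benjamini-Hochberg adjustment ran over all tested regions or genes, with 0.05 as the threshold. Log2 changes are on that scale, which understates the change of weak regions. Over all regions 7842 were called, and 70.0% of these were higher in GrnKO. On the recovered reads, edgeR's quasi-likelihood test called 6925 regions and DESeq2 1.42.0 called 7612. Ratios within a library were compared by an exact two-sided permutation test. The tests were checked on simulated data.

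Named were all 9 genes, each called region and the strongest region per gene, the 6 other genes of the pump with the smallest p, and the 3 genes most like the one with the smallest p. The 9 genes, the lists and the markers were chosen with earlier results of these data known. The sum over oligodendrocyte markers is not reported here. Further genes, and other regions, were named after their values were seen. Promoter sequences are RefSeq's (GRCm38.p6). An entry was found for 7 of the 9 genes, and for 6 of these it began at a start site implied by the table. Alternatives were other scalings, a pseudocount of 5, no filter, the count tests, a replicate block, each library left out, subtraction of input, and sums over near, far or non-overlapping regions.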

Additional observations from a re-analysis of the deposited data

How the results depend on the processing

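Of 730 alternative values, 528 stayed on the same side of 0 and of the threshold, or for counts within 1.5 times, and 33 changed sign. With all 4 libraries, Atp6v0a2 and Atp6v0d2 kept their calls under each alternative except the subtraction of input. Atp6v0d2 has no near sum and Atp6v0b no far sum. The cause of the changes below was not tested.

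Leaving out 1 library in turn, 0 to 19 regions of the 9 genes were called higher and 2 to 7 lower, 1 to 5 of the genes higher and 1 lower, and 2 to 12 of the other pump genes higher and 0 to 1 lower. Of all features, 1.67% to 17.8% of regions and 5.65% to 23.6% of genes were then called in either direction. With no filter 6 regions were higher, where 3.12% of all were, and on the authors' scaling alone 1 region and 0 other pump genes were lower, where 0.412% of all regions and 1.08% of all genes were. That scaling moved the median of all regions from -0.0020 to 0.22 and the share of calls that were higher from 70.0% to 95.2%, and for genes from 66.2% to 90.8%. edgeR called 0 other pump genes lower, and 4.70% of all genes. From near sums 2 of the 9 genes were higher and 0 other pump genes lower, and from far sums 2 were higher, with 4 other pump genes higher and 0 lower. Of all genes 3.96% were higher and 1.53% lower by near sums, and 11.7% and 6.05% by far sums.

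Subtracting input left 0 calls in either direction for regions, for the 9 genes and for the other pump genes. It moved the median of all tested genes to -0.48 and that of all tested regions to -0.23. The change of sign then reached Atp6v0b (-1.91), Atp6v0c (-0.14), Atp6v0d1 (-2.24), Atp6v0e (-1.39), Atp6v1a (-1.70), Atp6v1e1 (-0.69) and Dmxl1 (-0.81). Single regions did so at Atp6v0a1 (4.61), Atp6v0a2 (0.13, 0.97 and 1.59), Atp6v0b (-1.57), Atp6v0c (-1.22 and -0.12) and Atp6v0d2 (-1.45 and -1.37). Standard errors of these values ran as high as 3.57.

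Atp6v0e, which was called higher at 0.62, had the opposite sign in its far sum at -0.72 (limma adjusted p = 0.113). Values of genes and regions that were not called also changed sign. Near sums gave -0.32 at Atp6ap1 and 0.74 at Atp6ap2. Atp6ap2 was 0.074 on the authors' scaling and 0.053 over non-overlapping regions. With a library left out, Atp6ap1 ran from -0.34 to 0.51, Atp6ap2 from -0.31 to 0.094, the strongest region of Atp6ap1 from -0.18 to 0.74, that of Atp6ap2 from -0.86 to 0.14 and that of Atp6v0c from -0.083 to 0.14. The strongest region of Atp6v0a1 was 0.056 on the authors' scaling. The d isoform ratio lay between -0.15 and 0.36 with a library left out. The far to near ratio, an alternative added after seeing the data, ran from -0.21 to 0.29 at Atp6v0a1 and from -0.014 to 0.29 at Atp6v0a2 with a library left out.

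Same-numbered replicates are different mice, and their deviations correlated at 0.034 over all tested regions and at 0.24 over the 1757 on the X and Y chromosomes. The labels give same-numbered samples no shared origin, so the numbers were not taken to pair them in the main test. The first replicate of each genotype was nonetheless high at Xist and the second low. Adding the replicate number as a block gave 15 regions of the 9 genes called higher and 6 lower, and 11391 regions in all, 14.1% of those tested. The block left 4 of the 9 genes higher and 1 lower, and 9 other pump genes higher and 1 lower, while the share of all genes called went from 14.4% to 19.4%. The X-linked Atp6ap1 and Atp6ap2 stayed uncalled (limma adjusted p = 0.909 and 0.768).

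Depth limited the weak regions, of which 11 were not tested, and 2 pools per genotype limited every test.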
